A study of Mus musculus with 2 samples.

Results

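A group of 70 *Pax8*-rich nuclei was described in the mouse fetal testis, 70 of 7492 kept nuclei or 0.934% of them, under the working label supporting-like cells of the rete testis. They were chosen by their RNA. Nuclei were ranked by the share of their RNA molecules (UMIs, unique molecular identifiers) that fell in *Pax8*, *Rmst*, *Gabrg3*, *Kcnh7*, *Bmpr1b*, *Car10*, *Krt8* and *Krt18*, and the 70 highest were taken. They are called the *Pax8* nuclei here, and the remaining 7422 kept nuclei the other nuclei. The testes came whole and frozen from embryos at E14.5 that carried *Nr5a1-cre* and *Rosa-tdTomato*, and both libraries used here share these alleles. How many embryos went into the pool is not stated in the labels or methods used. *Nr5a1-cre* is active in somatic cells of the gonad and adrenal, but no sort on tdTomato was described, so all cell types of the testis and of any attached mesonephros could be present. RNA and open chromatin were read from the same nuclei with the 10x multiome assay (ATAC, a transposase that cuts accessible DNA), giving 1 RNA library and 1 ATAC library.

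Supporting-like cells are a lineage of the fetal gonad marked by *Pax8*, a paired box transcription factor that is also used by the mesonephric ducts, kidney and thyroid. They lie where the gonad meets the mesonephros, and they contribute to the rete testis, the epithelial channels that join the seminiferous tubules to the efferent ducts. Sertoli cells, the supporting cells of the testis cords, make *Amh* and depend on *Sox9* and *Dmrt1*. Both lineages share regulators of the early gonad such as *Wt1* and *Gata4*.

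Each assay had 1 library, so no value here has a replicate and nuclei were not used as replicates. Levels are given as counts per 1000000 UMIs (CPM) over the summed nuclei of a class. Intervals in parentheses are exact 95% intervals that cover counting error only. The *Pax8* nuclei held 758899 UMIs in all, between 2118 and 38978 per nucleus with a median of 9845.5, against a median of 8221 in the other nuclei. They held 234532 transposase cuts in peaks, with a median of 2952 per nucleus against 3308.5. Doublet scores from Scrublet had a median of 0.0314 in the *Pax8* nuclei and 0.0296 in the other nuclei, and 1 of the 70 was among the 449 highest scores. The 30 nuclei ranked just outside the group had a median score of 0.187 and a median of 17135.5 UMIs, and 7 of them were among the highest scores.

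The marker share fell gradually at the edge of the group. The 8 markers took 3.96% of UMIs in the highest nucleus, 2.02% in the median *Pax8* nucleus and 1.14% at rank 70. They took 1.09% at rank 71, 0.433% at rank 100 and 0.163% at rank 200, and the median of the other nuclei was 0. *Rmst* alone gave 64.7% of the marker UMIs, and *Rmst* with *Bmpr1b* gave 83.7%, so these 2 genes largely set the ranking. Still, 68 of the 70 nuclei held at least 4 of the 8 markers.

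The marker levels describe the choice and test nothing. *Pax8* had 0 UMIs in the lowest, 9 in the median and 34 in the highest *Pax8* nucleus and was detected in 68 of 70, with 871 CPM over the group and 7.46 CPM in the other nuclei. *Rmst*, a long non-coding RNA known from neural differentiation, ranged from 29 to 337 UMIs with a median of 120.5 and reached 12302 CPM against 111 CPM. *Bmpr1b*, a type I receptor for BMP ligands, ranged from 1 to 107 UMIs and reached 3618 CPM against 78.8 CPM. With every nucleus thinned to 2000 UMIs, *Pax8* was detected in 75.7% of the group and in 0.530% of germ-like nuclei, which should lack it. Every *Pax8* nucleus held *Rmst* and *Bmpr1b*, while the ion channel markers were patchier. *Gabrg3*, a subunit of the GABA-A receptor, was detected in 56 nuclei, *Kcnh7*, a voltage-gated potassium channel, in 54, and *Car10*, a carbonic anhydrase-related protein, in 33.

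When each marker was measured in the 70 nuclei ranked without its own vote, its level stayed well above that of the remaining nuclei for 6 of the 8 markers. *Pax8* was 117 times (104 to 131) higher, in the same 70 nuclei. *Rmst* was 89.2 times (86.6 to 91.9) higher in a group that shared 62 nuclei, and *Gabrg3* 123.9 times (112 to 138) higher. *Car10* was 100.1 times (82.9 to 121) higher, *Kcnh7* 86.2 times (77.7 to 95.7) and *Bmpr1b* 42.5 times (40.5 to 44.4). The markers were chosen together, so these values describe how far the markers coincide.

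**Figure D1:**
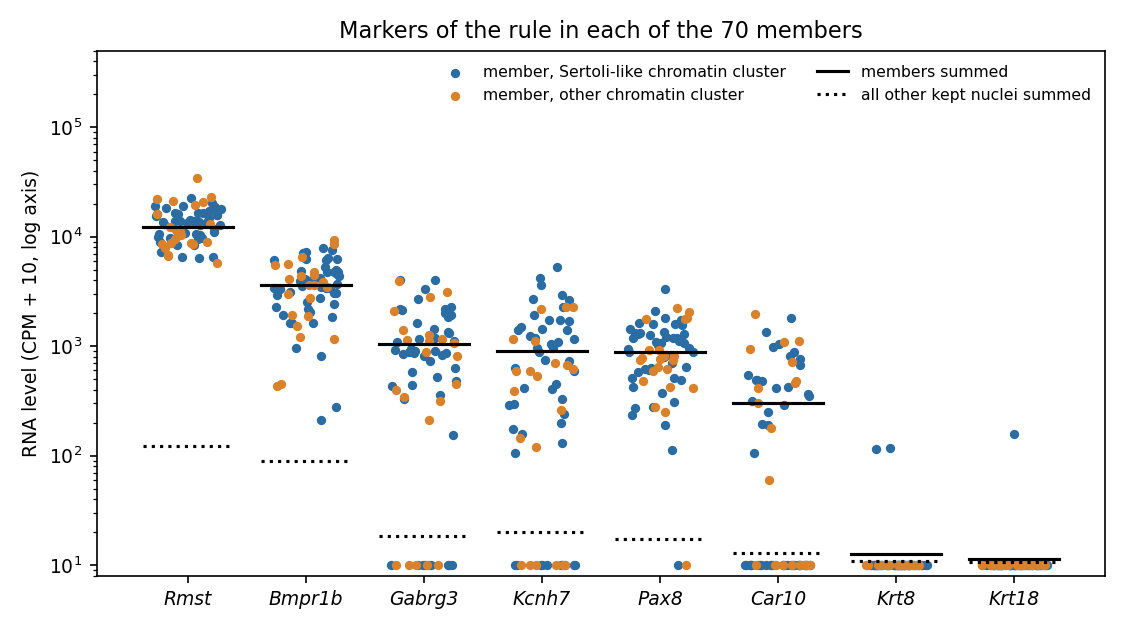
RNA level of the 8 markers of the rule in each of the 70 *Pax8* nuclei (members), as CPM plus 10 on a log axis. Points are nuclei coloured by their chromatin cluster, solid lines the level over the 70 summed and dotted lines that over the 7422 other nuclei, and points on the bottom row have 0 UMIs, as nearly all do for *Krt8* and *Krt18*.

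The keratin part of the label was barely detected, in these nuclei and in the other nuclei alike. *Krt8* and *Krt18* encode the intermediate filament pair of simple epithelia, including that of the rete testis. *Krt8* had 2 UMIs and *Krt18* 1 UMI over all 70 nuclei, with ratios over the remaining nuclei of 2.99 (0.355 to 11.2) and 1.75 (0.0436 to 10.1). *Krt8* stood at only 0.881 CPM in the other nuclei and 2.86 CPM in Sertoli-like nuclei, and *Krt18* at 0.753 and 1.28 CPM. Counts this low in every class cannot show whether the *Pax8* nuclei lack these keratins. Of the 47 other keratin genes, 43 had 0 UMIs, including *Krt19*, which allows up to 3.95 CPM over the group. Ranking without both keratins returned the same 70 nuclei. The presence of the other markers was fixed by the choice of nuclei and says nothing for the label, and the name *Pax8* nuclei is used in place of rete testis.

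Where the nuclei belonged was then asked of their chromatin, which the rule used only for a minimum of 500 cuts. Clusters of all kept nuclei were made from peak counts alone and named by RNA markers of nuclei outside the group. Of the 70 *Pax8* nuclei, 48 (68.6%, 56.4% to 79.1%) fell in the Sertoli-like cluster, which held 859 (11.6%, 10.9% to 12.3%) of the other nuclei. The rest were spread over the surface epithelium-like (7), interstitial progenitor-like (5), contractile-like (4), germ-like (2) and mesonephric mesenchyme-like (1) clusters and over a cluster left unnamed (3), and 0 were Leydig-like. By chromatin, most *Pax8* nuclei were thus placed beside Sertoli-like nuclei.

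**Figure D2:**
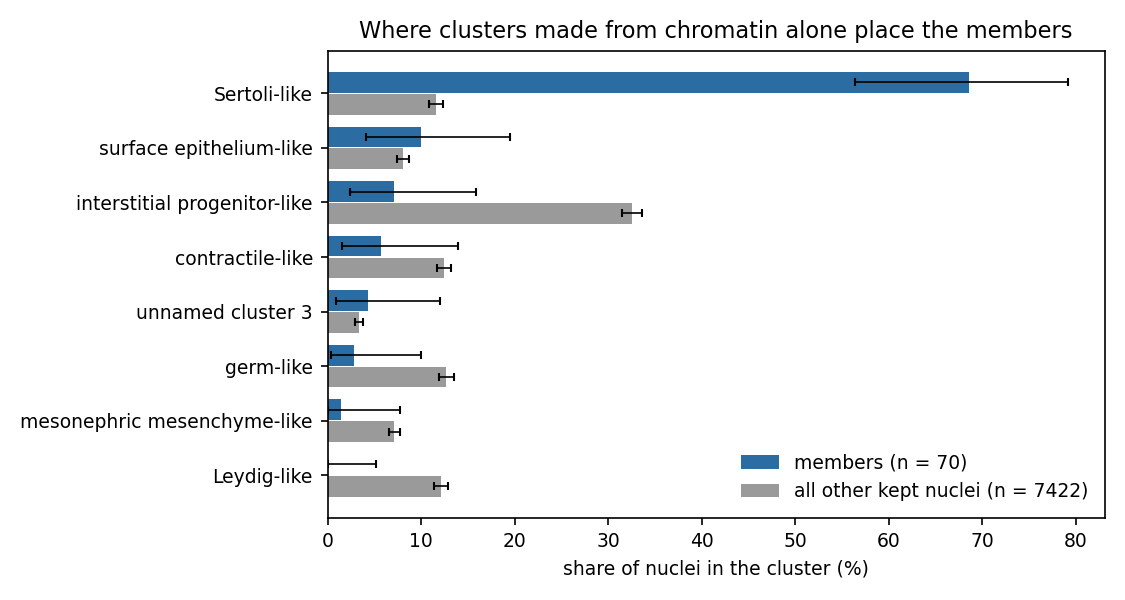
Share of the 70 *Pax8* nuclei (members, blue) and of the 7422 other nuclei (grey) in each cluster made from peak counts alone, with exact 95% binomial intervals. The Sertoli-like bar of the *Pax8* nuclei stands at 68.6% against 11.6% of the other nuclei.

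Within that neighbourhood the *Pax8* nuclei also lay near each other. Of the 1400 places among their 20 nearest neighbours in the chromatin space, 269 (19.2%, 17.2% to 21.4%) were taken by *Pax8* nuclei, which are 0.934% of all kept nuclei. For the other Sertoli-like nuclei that share was 0.704% (0.585% to 0.841%). The 20 places of a nucleus are not independent, nor are those of nuclei that neighbour each other, so both intervals are narrower than they should be. The spread among the nuclei was wide, since 18 of the 70 had no *Pax8* nucleus among their neighbours and the highest had 15. Finer clustering at resolution 2 put 49 of the 70 into a cluster of 441 nuclei, but its other nuclei had a median of 1498 cuts and the remaining Sertoli-like nuclei 3954.5, so the finer clusters differed in depth as well. The 49 *Pax8* nuclei there had a median of 3043 cuts, above that of the other nuclei of their cluster. The share in the Sertoli-like cluster was 74.3% for ranks 1 to 35, 62.9% for ranks 36 to 70 and 16.7% for ranks 71 to 100.

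In RNA the nearest class was another one. Spearman's rho of CPM over 7237 genes outside the rule was highest with surface epithelium-like nuclei (0.839), followed by contractile-like (0.809), mesonephric mesenchyme-like (0.805) and Sertoli-like nuclei (0.797), and was lowest with germ-like nuclei (0.678). These correlations are across genes, between sets of nuclei from the same RNA library, and depth differs between classes. The class with the highest rho was thus not the cluster that held most *Pax8* nuclei. A rho over the whole group and a count of nuclei per cluster are unlike measures, so their orders cannot be compared directly.

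Genes outside the rule were compared where the mean of both levels was at least 20 CPM. Of 7109 genes compared, 522 (7.34%) were at least 2-fold higher in the *Pax8* nuclei than in the other nuclei and 776 (10.9%) were at least 2-fold lower, with a median log2 ratio of -0.11. Against the Sertoli-like nuclei, 655 of 6962 genes (9.41%) were at least 2-fold higher and 827 (11.9%) at least 2-fold lower. The *Pax8* nuclei were picked on RNA of the same library, so these ratios describe them and are not a test.

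Of the 20 leading genes, several encode regulators. *Rp1*, a microtubule protein best known from photoreceptor cilia, led with 284.6 CPM against 1.91 CPM, a ratio of 148.6 (120.1 to 184), and was detected in 50 of the 70 nuclei with 0, 2 and 11 UMIs in the lowest, median and highest nucleus. *Tbx1*, a T-box transcription factor, was 105 times (73.8 to 148.6) higher and was detected in 34 nuclei. *Prdm16*, a zinc finger regulator of transcription, had 0, 5.5 and 16 UMIs in the lowest, median and highest nucleus, was detected in 63 and was 56.2 times (49.6 to 63.7) higher. These genes were nearly silent in Sertoli-like nuclei, where *Rp1* had 4 UMIs, *Tbx1* 20 and *Prdm16* 41 in 859 nuclei. *Smad9*, a receptor-activated SMAD of the BMP pathway, was 19.4 times higher.

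Other leading genes encode signalling and transport proteins. *Aldh1a3*, an enzyme that makes retinoic acid, was detected in 36 nuclei and was 117 times (88.3 to 156) higher, at 144 CPM against 1.23 CPM. *Gfra1*, the co-receptor for GDNF, was 56.0 times (47.2 to 66.2) higher and reached 22 UMIs in 1 nucleus. *Ano2*, a calcium-activated chloride channel, was 95.3 times (74.6 to 122) higher, and *Bcat1*, an aminotransferase of branched-chain amino acids, 97.9 times (70.1 to 137). Each of these 4 genes had at most 17 UMIs in all Sertoli-like nuclei together. *Stk32b*, a kinase, was 90.8 times higher and *Sorl1*, a sorting receptor, 27.1 times.

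*Slc25a21*, a mitochondrial carrier, reached 1469 CPM in the *Pax8* nuclei with 68 of 70 positive. It is not particular to them, since the unnamed cluster 3, which mixed immune and erythroid genes, had 1088 CPM. *Cadps*, which primes vesicles for release, was 17.3 times (16.2 to 18.5) higher than in the other nuclei but 3.19 times (2.98 to 3.42) higher than in Sertoli-like nuclei. Further genes among the leading 20 were *Styk1*, *Cnmd*, *Gm29521*, *Galntl6*, *Egfl6*, *Gpat3* and *Plscr2*, between 18.9 and 22.7 times higher. Against Sertoli-like nuclei 13 of the 20 also ranked among the leading 20, where they were joined by *Inpp4b*, *Met*, *Cdh8*, *Cnr1*, *Slit3*, *Mybpc1* and *4930426D05Rik*.

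**Figure D3:**
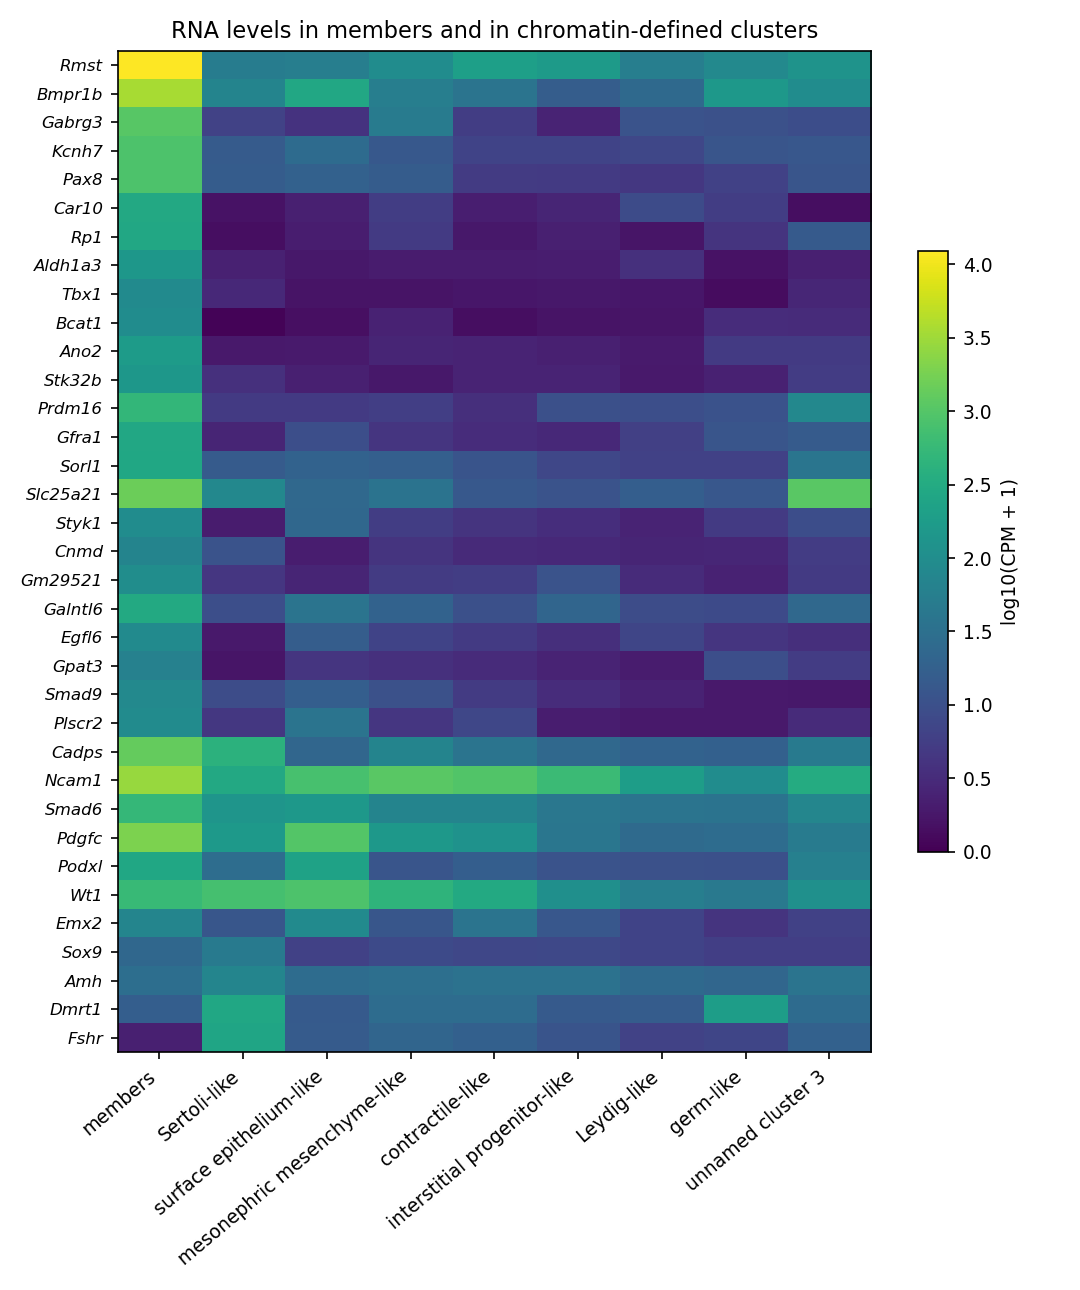
Heat map of RNA levels, as log10(CPM + 1), of the rule markers without the keratins, 19 of the 20 leading genes and further named genes (rows) in the *Pax8* nuclei (members) and in the chromatin-defined clusters without them (columns). The leading genes are bright in the first column, with *Slc25a21* also high in unnamed cluster 3 at 1088 CPM, while *Fshr* is bright in the Sertoli-like column at 254 CPM and dark in the first.

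At the other end, 3 of the 10 lowest genes had 0 UMIs in the *Pax8* nuclei. With a floor of 3 UMIs over the group, *6030498E09Rik* was at least 19.0-fold lower than in the other nuclei, *Bmp5*, a BMP ligand, at least 11.8-fold and *Esrp1*, a splicing regulator of epithelial cells, at least 10.3-fold, although among the 100 highest nuclei *Esrp1* had a ratio of 0.615 (0.425 to 0.862). *Ebf1*, a transcription factor of mesenchymal and B-lineage cells, had 1 UMI against 237 CPM in the other nuclei, a ratio of 0.00555 (0.00014 to 0.0309). *Fshr*, the FSH receptor of Sertoli cells, also had 1 UMI, against 42.4 CPM in the other nuclei and 254 CPM in Sertoli-like nuclei. *Fam129a*, *8030451A03Rik*, *St18*, *Usp26* and *Grin2a* completed the 10, with 1 to 4 UMIs each. These low levels depend on where the group ends, since among the 100 highest nuclei *St18* had a ratio of 0.966 (0.751 to 1.22) and the other 8 genes besides *Esrp1* had ratios between 0.0673 for *Ebf1* and 0.491 for *Usp26*, with 0.203 (0.126 to 0.311) for *6030498E09Rik*.

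The Sertoli genes were low beside Sertoli-like nuclei, despite the position of the chromatin, but not all were low beside the other nuclei. *Sox9*, *Amh* and *Dmrt1* together reached 67.2 CPM in the *Pax8* nuclei, 130.0 CPM in the other nuclei and 391 CPM in Sertoli-like nuclei, ratios of 0.517 (0.385 to 0.680) and 0.172 (0.128 to 0.226). *Sox9* stood at 22.4 CPM (13.0 to 35.9), between 11.1 CPM in the other nuclei and 46.1 CPM in Sertoli-like nuclei. *Amh* stood at 29.0 CPM (18.2 to 43.9) against 34.2 and 71.6 CPM. *Dmrt1* showed the widest gap, with 15.8 CPM (8.17 to 27.6) from 5 nuclei against 84.7 CPM, a level that germ-like nuclei at 186 CPM also feed, and 274 CPM in Sertoli-like nuclei. Of its 12 UMIs, 5 came from the 2 *Pax8* nuclei in the germ-like cluster, and without these 2 the level was 9.81 CPM. With every nucleus thinned to 2000 UMIs, *Sox9* was detected in 2.86% (0.348% to 9.94%) of *Pax8* nuclei, *Amh* in 5.71% (1.58% to 13.99%) and *Dmrt1* in 1.43% (0.0362% to 7.70%). Surface epithelium-like nuclei, which should lack them, gave 0.838%, 4.69% and 1.84% at the same depth, within each of these intervals. Sertoli-like nuclei gave 8.50%, 13.4% and 41.7%, and of these only the share for *Dmrt1* lay outside the interval of the *Pax8* nuclei. Unthinned shares were 22.9%, 24.3% and 7.14% in the *Pax8* nuclei. At 2000 UMIs the summed ratio was 0.230 (0.125 to 0.389) over Sertoli-like nuclei but 0.887 (0.484 to 1.49) over the other nuclei, so only the interval over Sertoli-like nuclei lay below 1 at that depth.

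Over the 13 listed Sertoli genes, 10 passed the low-level filter against Sertoli-like nuclei, and 8 of these were at least 2-fold lower and 1 at least 2-fold higher, where 11.9% and 9.41% of all genes compared with Sertoli-like nuclei were. *Mro* had a ratio of 0.0573 (0.0286 to 0.103) and *Aard* of 0.0545, both genes of the early Sertoli cell. The exception was *Fgf9*, a growth factor of the supporting lineage, with 198 CPM against 27.2 CPM in Sertoli-like and 18.4 CPM in the other nuclei. *Fgf9* had 0, 1 and 22 UMIs in the lowest, median and highest *Pax8* nucleus, and surface epithelium-like nuclei had 133 CPM. Summed over the 13 genes, the ratio was 0.342 (0.302 to 0.385) over Sertoli-like nuclei but 1.14 (1.005 to 1.28) over the other nuclei. Against the other nuclei 7 passed the filter, with 1 at least 2-fold higher and 3 at least 2-fold lower. The shares over all genes compared there were 7.34% and 10.9%.

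Of 18 genes listed for supporting-like cells and rete testis, 14 passed the filter against the other nuclei, with 5 at least 2-fold higher and 4 at least 2-fold lower (7.34% and 10.9% of all genes compared), and the median log2 ratio was 0.12, against -0.11 over all genes compared. Besides *Aldh1a3*, the higher genes were *Ncam1*, a neural cell adhesion molecule, at 2883 CPM against 489 CPM, *Emx2*, a homeobox factor needed for the urogenital system, at 71.2 against 18.1 CPM, *Cdh2* at 445 against 178 CPM and *Wt1* at 575 against 279 CPM. *Ncam1* was found in 69 of the 70 nuclei, with a median of 29.5 UMIs. *Wt1* was below its level in Sertoli-like nuclei (766 CPM), and *Gata4*, at 632 CPM, was 0.464 times (0.423 to 0.509) its level there. The lower genes were *Aldh1a1*, *Dcn*, *Igfbp3* and *Lhx9*, the last at 43.5 against 134 CPM, and *Sox17* and *Stmn2* had 0 UMIs. Members of the list thus lay on both sides.

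Genes of the mesonephric ducts and tubules, which share *Pax8* with these nuclei, were checked next. Of 15 listed genes, 4 passed the filter, with *Emx2* and *Bcam*, a laminin receptor, higher (*Bcam* at 103 against 14.49 CPM) and *Esrp1* lower. Over all genes compared 7.34% were higher and 10.9% lower. Against Sertoli-like nuclei 3 of the 3 listed genes that passed were at least 2-fold higher, beside 9.41% of all genes compared. *Grhl2*, *Wnt9b*, *Cldn7* and *Wnt7b* had 0 UMIs, *Lhx1* 3, *Cdh16* 3 and *Gata3* 9. *Pax2*, a paired box factor that acts with *Pax8* in the ducts, had 16 UMIs in 3 nuclei, of which 14 came from 1 nucleus in unnamed cluster 3. The summed list stood at 278 CPM against 168 CPM in the other nuclei, a ratio of 1.66 (1.44 to 1.901), and 80.3 CPM in Sertoli-like nuclei, a ratio of 3.46 (2.96 to 4.03), with *Bcam*, *Emx2* and *Mecom* as its main part. *Mecom*, a zinc finger regulator, had 39 UMIs in 5 nuclei. Without the nucleus highest in this list, of rank 59 and the unnamed cluster 3, the sum was 216 CPM, with ratios of 1.29 (1.097 to 1.51) and 2.69 (2.26 to 3.19). Of the 8 other Pax genes, 6 had 0 UMIs.

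The surface epithelium gave *Podxl*, a sialomucin of cell surfaces, and *Pdgfc*, a ligand of PDGF receptors. *Pdgfc* was found in all 70 nuclei with 2, 21 and 58 UMIs in the lowest, median and highest, and reached 1933 CPM against 142 CPM in the other nuclei and 1003 CPM in surface epithelium-like nuclei. *Podxl* reached 277 CPM against 30.5 CPM and 222 CPM. Of 11 listed surface epithelium genes, 6 passed the filter, and besides these 2 higher genes 2 were at least 2-fold lower than in the other nuclei, with a median log2 ratio of 0.17. Over all genes compared 7.34% were higher and 10.9% lower, with a median of -0.11. *Cdh3*, a cadherin, stood at 105 CPM against 63.1 CPM in the other nuclei, and *Bnc2*, a zinc finger protein, at 452 against 2228 CPM and 3493 CPM in surface epithelium-like nuclei. *Aldh1a2*, which also makes retinoic acid, had 17.1 CPM against 390.2 CPM in surface epithelium-like nuclei, *Upk3b* 14.49 against 91.0 CPM, and 15 of the 16 UMIs of *Muc16* came from 1 nucleus.

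BMP signalling, which the marker *Bmpr1b* belongs to, was followed along its steps. BMP ligands bind pairs of type I and type II receptors, which activate SMAD1, SMAD5 and SMAD9, and SMAD6 and SMAD7 restrain the signal. Of the 29 listed genes outside the rule, 17 passed the filter, 6 were at least 2-fold higher and 2 at least 2-fold lower than in the other nuclei, where the shares over all genes compared were 7.34% and 10.9%, so the count of lower genes was near the background. Among ligands, *Bmp2*, *Bmp5* and *Gdf5* had 0 UMIs, *Bmp7* had a ratio of 1.04 (0.473 to 1.98) and *Bmp6* had 35.6 against 68.2 CPM, while *Bmp4* had 30.3 against 7.43 CPM, a ratio of 4.08 (2.57 to 6.18), and did not pass the filter on low levels. *Gdf6*, also below the filter, had 12 UMIs in 9 nuclei and a ratio of 9.60 (4.84 to 17.4), and *Bmp3* 4 UMIs in 1 nucleus. The remaining receptors were near the level of the other nuclei, with ratios of 1.12 (1.002 to 1.24) for *Bmpr1a* and 0.994 (0.894 to 1.10) for *Bmpr2*, the type II receptor.

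Downstream, receptor-activated SMADs differed among themselves. *Smad5* was 2.80 times (2.43 to 3.22) higher and *Smad9* 19.4 times, while *Smad1* had a ratio of 0.866 (0.609 to 1.20). *Smad6* had 0, 4 and 27 UMIs in the lowest, median and highest nucleus and was 7.99 times (7.197 to 8.85) higher than in the other nuclei and 3.95 times (3.52 to 4.42) higher than in Sertoli-like nuclei. Both inhibitors were higher than in the other nuclei, but *Smad7*, at 253 CPM, was lower than the 383 CPM of Sertoli-like nuclei. *Id4*, a target of the pathway, was 6.14 times (4.001 to 9.05) higher.

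Genes of Wnt signalling and of ovarian supporting cells, in which Wnt signalling is active, were listed together. Of the 15 genes, 8 passed the filter, 5 were at least 2-fold higher and 1 was at least 2-fold lower than in the other nuclei, with a median log2 ratio of 1.38. Among all genes compared 7.34% were higher and 10.9% lower, so 1 lower gene of 8 was near that share. *Nkd1*, a feedback inhibitor, reached 119.9 CPM against 23.6 CPM, and 6.11 CPM in Sertoli-like nuclei. *Lef1*, a nuclear effector, was 3.03 times (2.57 to 3.55) higher than in the other nuclei and 13.5 times (10.8 to 17.0) higher than in Sertoli-like nuclei, and *Axin2* 3.86 times (2.80 to 5.20) and 5.57 times. *Sp5*, with 9 UMIs in 8 nuclei, was below the filter at a ratio of 23.8 (10.1 to 49.99). The receptor *Lgr5* had 13.2 CPM against 27.2 CPM and 154 CPM in Sertoli-like nuclei. *Runx1*, a factor of ovarian supporting cells, stood at 92.2 against 21.3 CPM, while *Foxl2*, which defines those cells, and the Wnt agonist *Rspo1* had 1 UMI each. *Ctnnb1*, the central effector, had a ratio of 0.907 (0.726 to 1.12).

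Adhesion and polarity genes were found on both sides. Of 33 listed genes, 19 passed the filter, 7 were at least 2-fold higher and 5 at least 2-fold lower, beside 7.34% and 10.9% of all genes compared. *Ocln*, a tight junction protein, was 10.7 times (7.75 to 14.6) higher at 60.6 CPM, *Lama5*, a laminin chain, 8.25 times (5.44 to 12.05) and *Cdh6*, a cadherin of the developing kidney, 5.96 times (5.20 to 6.799). *Pkp2* and *Dsp*, both of desmosomes, were 3.32 and 2.15 times higher, and *Patj*, of the apical Crumbs complex, 2.73 times. Among the lower were *Lama1* at 71.2 against 201 CPM, *Col4a1*, *Col4a2* and *Esrp1*. Laminin chains were thus found on both sides, and *Cdh1*, the epithelial cadherin, stood at 38.2 against 34.4 CPM.

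Because *Gabrg3* and *Kcnh7* are ion channel genes, their families were listed whole, to be read beside the 7.34% of all genes compared that were higher and the 10.9% that were lower. Of 18 further GABA-A subunit genes, 6 passed the filter and 2 were at least 2-fold higher, among them *Gabra2* at 36.7 times (26.8 to 49.7), while *Gabrb2* was lower at 0.293 times (0.156 to 0.501). *Gabra5*, below the filter with 27 UMIs in 9 nuclei, had a ratio of 69.7 (41.1 to 116). Of the 6 that passed, *Gabrb2* was thus the only one at least 2-fold lower. Summed over the 18 genes the ratio was 2.62 (2.40 to 2.84) over the other nuclei and 7.41 (6.68 to 8.21) over Sertoli-like nuclei. Against Sertoli-like nuclei 4 of the 4 that passed were at least 2-fold higher, beside 9.41% of all genes compared. Of 91 further potassium channel genes, 18 passed, with *Kcnb2* (8.39 times, 7.65 to 9.19), *Kcnk5* and *Kcnab1* higher and 7 lower, and 41 had 0 UMIs. *Kcnj16*, below the filter, had 27 UMIs in 9 nuclei and a ratio of 155 (82.2 to 298).

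Of 27 transcription factor genes of the gonad outside the rule, 14 passed the filter, 4 were at least 2-fold higher (*Wt1*, *Emx2*, *Nr2f1*, *Runx1*) and 5 at least 2-fold lower (*Lhx9*, *Sox11*, *Dmrt1*, *Tcf21*, *Nr2f2*), against 7.34% and 10.9% of all genes compared. *Nr5a1*, which directs steroidogenic and Sertoli differentiation and whose promoter drives the Cre allele, had 55.3 CPM against 82.0 CPM and 109.7 CPM in Sertoli-like nuclei. *Sox5*, a SOX factor without a transactivation domain, had 2592 CPM against 1019 CPM and was detected in all 70 nuclei. *Nr2f1* and *Nr2f2* went opposite ways, with 51.4 against 13.0 CPM for *Nr2f1* and 81.7 against 289 CPM for *Nr2f2*, the factor of interstitial cells.

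Markers of other cell types were set against the other nuclei, which contain those cell types, and against Sertoli-like nuclei. At least 2-fold lower than in the other nuclei were 9 of 10 interstitial progenitor genes, 7 of 8 Leydig genes, 4 of 4 mesonephric mesenchyme genes, 4 of 4 germ genes and 4 of 4 erythroid genes that passed the filter. Over all genes compared with the other nuclei, 10.9% were at least 2-fold lower. The summed Leydig list was at 351 CPM against 1306 CPM and the summed germ list at 117 against 433 CPM. Against Sertoli-like nuclei 0 of 8 interstitial progenitor and 0 of 2 germ genes that passed were at least 2-fold lower, and 4 of 6 Leydig genes were. Over all genes compared with Sertoli-like nuclei 11.9% were lower, so 0 among so few genes is near that share. The summed ratios over Sertoli-like nuclei were 1.18 (1.09 to 1.28) for the progenitor, 1.36 (1.08 to 1.69) for the germ and 1.52 (1.18 to 1.93) for the contractile list. Some of these markers came from few nuclei. The 2 *Pax8* nuclei in the germ-like chromatin cluster, with a median of 22834 UMIs, carried 30 of the 39 *Dazl* UMIs and 16 of the 22 *Ddx4* UMIs. Without these 2 nuclei the summed germ list fell from 89 to 18 UMIs and its ratio over Sertoli-like nuclei turned to 0.292 (0.172 to 0.465). *Kdr*, listed as endothelial, was higher at 123.9 against 19.6 CPM, but *Emcn* had 0 UMIs and *Pecam1* 6.59 against 23.97 CPM.

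Many genes of the cell cycle were lower. Of S phase genes, 10 of the 22 that passed were at least 2-fold lower and 0 higher, and of G2 and M phase genes 27 of 36 and 0, where 10.9% of all genes compared were lower and 7.34% higher. The median log2 ratios were -0.96 and -1.33, against -0.11 over all genes compared. *Mki67*, a marker of cycling cells, was 0.452 times (0.353 to 0.569) and *Top2a*, which untangles DNA, 0.405 times (0.320 to 0.507) the level of the other nuclei. A UMI of either was found in 42.9% (31.1% to 55.3%) of *Pax8* nuclei, 63.8% (62.7% to 64.9%) of the other nuclei and 65.1% (61.8% to 68.3%) of Sertoli-like nuclei. At an equal depth of 2000 UMIs per nucleus, such a UMI remained in 14.3% (7.07% to 24.7%) of *Pax8* nuclei, 36.6% (35.5% to 37.7%) of the other nuclei and 36.8% (33.6% to 40.1%) of Sertoli-like nuclei. Leydig-like nuclei, of a cell type that mostly does not divide, gave 52.4% (49.1% to 55.7%) at a median of 9379 UMIs and 20.5% (17.9% to 23.3%) when thinned. The share of the *Pax8* nuclei was thus no higher than in nuclei that should hold few cycling cells, and how much of it is background was not tested. Single nuclei stood far above the rest in the summed G2 and M phase genes. These had 10673 CPM at rank 64, 9121 CPM at rank 61 and 8448 CPM at rank 46, against 2060 CPM over the group.

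The *Pax8* nuclei differed among themselves by chromatin cluster. The 48 in the Sertoli-like cluster and the 22 elsewhere both held the markers of the rule, but not all at equal levels. *Pax8* stood at 930 CPM (844 to 1023) in the 48 and 779 CPM (682 to 886) in the 22, *Car10* at 293 and 299 CPM, and *Kcnh7* at 1065 CPM (973 to 1163) and 615 CPM (529 to 710). *Rmst* stood at 13098 CPM (12770 to 13433) in the 48 and 11069 CPM (10694 to 11453) in the 22. The intervals leave out the spread among nuclei. Over the 70, the variance was 20.6 times that of counting error for *Rmst* and 13.4 times for *Kcnh7*. Whether the subsets differ beyond that spread was not tested, here or for the genes that follow. Further genes outside the rule differed between the subsets by more. *Smad6* stood at 703 CPM (628 to 783) in the 48 and 248.5 CPM (195 to 312) in the 22, *Ncam1* at 3604 against 1766 CPM and *Gfra1* at 382 (327 to 442) against 141 CPM (102 to 191). In the other direction *Pdgfra*, of interstitial cells, stood at 56.4 CPM (36.8 to 82.6) in the 48 and 165 CPM (122 to 218) in the 22, and *Upk3b* at 2.17 against 33.6 CPM. The 22 had a median doublet score of 0.0690 and 12767 UMIs, against 0.0300 and 9783.5 UMIs in the 48, and the part of mixed nuclei in these differences was not tested. For all 20 leading genes the level was at least 2-fold above that of the other nuclei in both subsets, which were defined after the data had been seen.

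Accessible chromatin at the loci of the markers was compared as cuts per 1000000 cuts, called normalised cuts. Each fragment leaves a cut at both of its ends, so cuts are not independent and the intervals are narrower than they should be. At peaks within 1000 bases of the gene start, *Pax8* had 12 cuts from 6 *Pax8* nuclei and a ratio over the other nuclei of 6.24 (3.18 to 11.1), *Car10* 8 cuts from 3 nuclei and 4.66 (1.99 to 9.36), and *Bmpr1b* 19 cuts and 2.99 (1.79 to 4.70). For *Car10* all 8 cuts came from nuclei in the Sertoli-like cluster, and the ratio was 0 (0 to 5.69) in the 22 nuclei outside it. *Rmst* had 5 cuts from 3 nuclei and a ratio of 1.14 (0.369 to 2.68), and *Kcnh7* 0 cuts, so a difference from the other nuclei was not detectable there at this depth. Over Sertoli-like nuclei, which had 8 cuts, the ratio at *Rmst* was 7.79 (2.004 to 26.99). Over the whole gene and the 2000 bases upstream, the ratio was 4.24 (3.37 to 5.28) for *Pax8* from 84 cuts, 3.03 (2.61 to 3.50) for *Bmpr1b*, 2.76 (2.18 to 3.46) for *Rmst*, 2.24 (1.89 to 2.63) for *Gabrg3*, 1.79 (1.48 to 2.15) for *Car10* and 1.496 (1.15 to 1.91) for *Kcnh7*. The 6 markers with RNA in these nuclei therefore all had more cuts over their genes, by less than the RNA ratio in each case.

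The 20 leading RNA genes followed the same direction. Their median ratio of cuts over the gene was 1.82, with 19 of 20 above 1 and 8 at least 2-fold higher, where 1.09% of all 7060 genes with a value were at least 2-fold higher and the median was 0.956. *Stk32b* had 2.49 (1.99 to 3.08), *Gfra1* 2.20 (1.82 to 2.63), *Bcat1* 2.15 (1.64 to 2.76) and *Prdm16* 2.01 (1.78 to 2.26). *Aldh1a3* was the exception at 0.638 (0.348 to 1.07) from 14 cuts. The 10 lowest RNA genes had a median of 0.749 with 2 above 1. Across all genes at least 2-fold higher in RNA, 422 of 520 were above 1, across those at least 2-fold lower 226 of 769 were, and across all genes with a value 3126 of 7060 were.

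**Figure D4:**
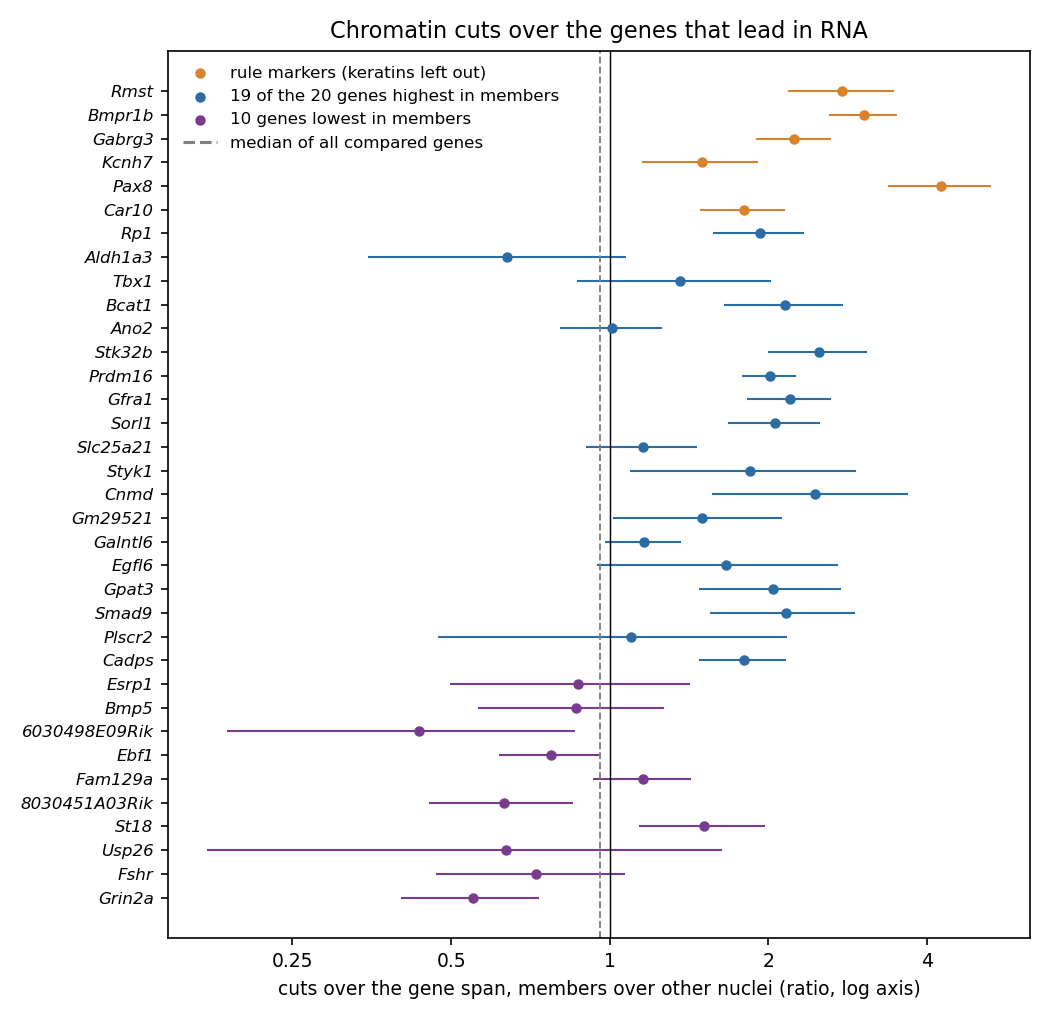
Ratio of normalised cuts over the gene and 2000 bases upstream, *Pax8* nuclei (members) over the other nuclei, on a log axis, for the rule markers without the keratins, 19 of the 20 leading and the 10 lowest RNA genes, with exact 95% counting intervals. The dashed line is the median of all compared genes (0.956), and *Pax8* lies highest at 4.24.

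At single peaks the counts were small. Of 52981 peaks compared, 40.3% were at least 2-fold higher and 12.1% at least 2-fold lower, and most of these ratios rest on few cuts. Of 839 peaks with cuts in at least 10 *Pax8* nuclei, 10.7% were at least 2-fold higher, a share over peaks chosen for cuts in these nuclei. The leading peak of these was chr2:24407643-24408457 (mm10), in an untranslated exon of *Psd4*, 67550 bases downstream of the *Pax8* start, with 21 cuts in 11 *Pax8* nuclei, a ratio of 26.7 (15.8 to 43.1) over the other nuclei and of 5.34 (3.04 to 9.07) over Sertoli-like nuclei. The next was an intergenic peak 10381 bases from the start of *Pla2g7*, chr17:43557257-43558177, with 29 cuts in 11 nuclei and ratios of 13.7 (9.004 to 20.2) and 17.2 (9.48 to 31.7). A peak in an intron of *Mroh2a*, chr1:88258993-88259785, had 37 cuts in 17 nuclei and ratios of 11.2 (7.74 to 15.6) and 4.96 (3.29 to 7.33). A peak in an intron of the non-coding gene *Gm13387*, chr2:25126032-25126935, had a ratio of 11.2 over the other nuclei but 1.80 (1.11 to 2.80) over Sertoli-like nuclei. The other 4 of the leading 8, in an intergenic stretch nearest to *Ly86*, introns of *Fndc3b* and *Col18a1* and an untranslated exon of *Hjurp*, had ratios between 4.94 and 5.92. Over Sertoli-like nuclei these were between 1.53 and 3.04, and the intervals for *Fndc3b* (0.910 to 2.44) and *Hjurp* (0.962 to 2.52) included 1.

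The *Pax8* gene (chr2:24420560-24475599, minus strand, mm10) held several such regions. Of the 20 peaks around it that were listed, several had few or no cuts from the *Pax8* nuclei, and the following were among those with the most. An intron peak at chr2:24427881-24428879, 47220 bases into the gene, had 10 cuts in 5 nuclei and ratios of 21.5 (9.80 to 42.6) over the other nuclei and 20.8 (6.84 to 69.5) over Sertoli-like nuclei. An intergenic peak past the gene end, chr2:24416460-24417467, had 16 cuts in 8 nuclei and ratios of 10.5 (5.87 to 17.5) and 12.5 (5.83 to 26.6). The peak at the start, chr2:24475249-24476178, had 12 cuts in 6 nuclei and ratios of 16.8 (8.37 to 30.9) and 14.9 (5.92 to 38.6). The next peak, chr2:24473715-24474616 in an exon of *Pax8*, had 0 cuts from the *Pax8* nuclei and 146 from the other nuclei, a ratio of 0 (0 to 3.09), and with both peaks together the ratio was the 6.24 given for the promoter. A peak 46068 bases upstream, with 6 cuts, had a ratio of 1.23 (0.450 to 2.70). Cuts of the *Pax8* nuclei were thus in excess at the gene start, in this intron and past the gene end, and no excess was detectable at the exon peak or the upstream peak.

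**Figure D5:**
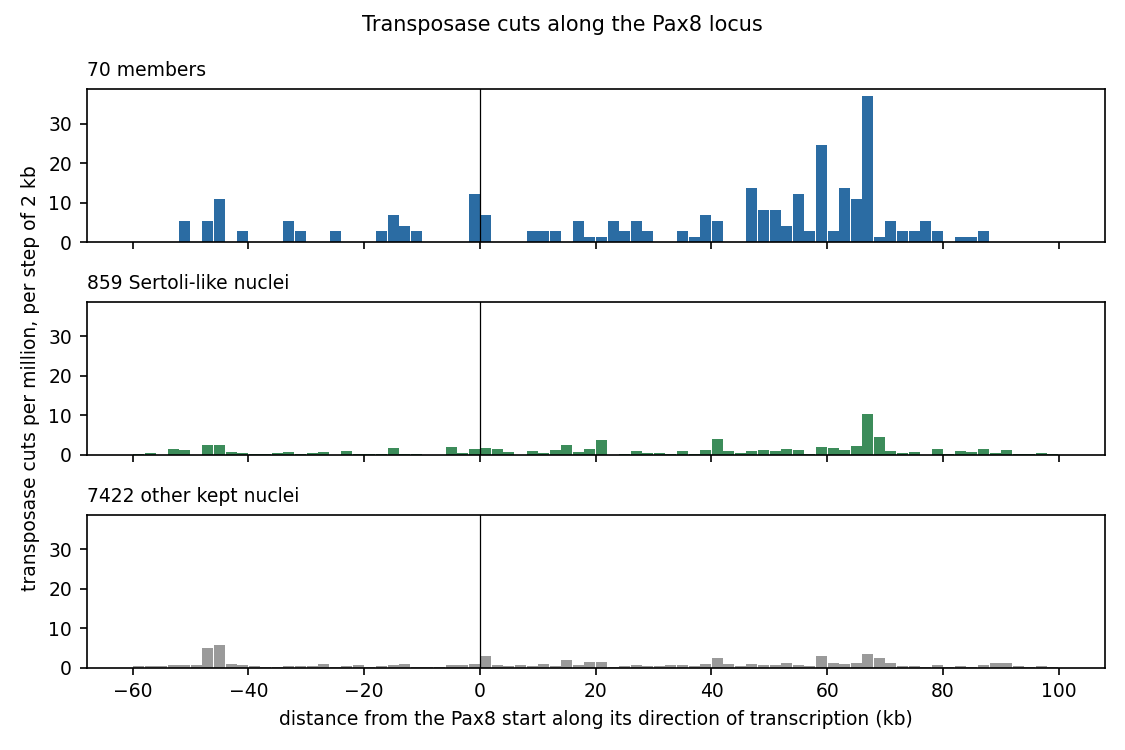
Transposase cuts per 1000000 in steps of 2 kb against the distance from the *Pax8* start along its direction of transcription, for the 70 *Pax8* nuclei (members), the 859 Sertoli-like nuclei and all 7422 other nuclei, each divided by the class total. The tallest step of the *Pax8* nuclei holds the leading peak 67550 bases downstream, which the Sertoli-like nuclei share at a lower level, and a step in the *Pax8* nuclei rests on few cuts.

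The sequences of these regions are given so that the elements that set the *Pax8* nuclei apart by cuts can be read. Each is 250 bases 5′ to 3′ from GRCm38.p6 of RefSeq, the assembly of mm10, the peaks at their centres and the promoter just upstream of the gene start. The *Pax8* promoter is chr2:24475600-24475849 on the minus strand, and the others are on the plus strand: the *Pax8* intron peak chr2:24428255-24428504, the peak past the gene end chr2:24416838-24417087, the leading intergenic peak chr17:43557592-43557841 and the *Mroh2a* intron peak chr1:88259264-88259513. Capitals mark matches, on either strand, to GATAA (GATA factors), AAGGTCA (NR5A1) and GCNTGAC (PAX paired domain). AACAAT (SOX), ATCAAAG (TCF/LEF), TGANTCA (AP-1), GGAATG (TEAD) and TGTGGTT (RUNX) were also searched and were not found in these windows.
Pax8 promoter: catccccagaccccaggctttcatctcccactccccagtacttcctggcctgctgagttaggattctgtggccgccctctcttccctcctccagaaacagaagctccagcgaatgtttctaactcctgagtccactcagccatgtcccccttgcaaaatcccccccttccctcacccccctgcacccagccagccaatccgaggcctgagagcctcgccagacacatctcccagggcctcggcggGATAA
Pax8 intron peak: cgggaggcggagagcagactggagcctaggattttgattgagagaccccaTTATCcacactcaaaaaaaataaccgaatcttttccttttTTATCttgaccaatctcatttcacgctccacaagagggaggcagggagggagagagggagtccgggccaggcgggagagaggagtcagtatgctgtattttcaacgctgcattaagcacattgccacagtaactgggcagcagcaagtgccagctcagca
Peak past the Pax8 end: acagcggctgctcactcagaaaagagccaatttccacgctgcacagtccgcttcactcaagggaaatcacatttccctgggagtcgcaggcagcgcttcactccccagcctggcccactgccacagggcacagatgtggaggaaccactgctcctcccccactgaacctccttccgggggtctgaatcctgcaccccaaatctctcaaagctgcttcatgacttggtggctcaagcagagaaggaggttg
Leading intergenic peak: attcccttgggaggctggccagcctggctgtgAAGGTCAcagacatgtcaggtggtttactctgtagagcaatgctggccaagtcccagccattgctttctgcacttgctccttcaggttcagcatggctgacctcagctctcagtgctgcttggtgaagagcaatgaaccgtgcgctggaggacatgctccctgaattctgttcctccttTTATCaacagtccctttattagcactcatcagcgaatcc
Mroh2a intron peak: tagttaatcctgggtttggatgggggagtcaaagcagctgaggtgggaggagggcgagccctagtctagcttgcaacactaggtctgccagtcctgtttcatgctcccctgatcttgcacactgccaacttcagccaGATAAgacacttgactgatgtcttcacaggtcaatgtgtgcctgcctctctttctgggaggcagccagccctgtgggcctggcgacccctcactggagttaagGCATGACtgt

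The windows printed were chosen for their cuts, and their matches cannot be read as a share of the higher peaks. Over the centres of all 109183 peaks with sequence GATAA was found in 29.3%, but their median GC content was 50.4%, against 65.8% in the 90 higher and 67.2% in the 746 peaks not higher that are described next, so a share over all peaks is set against unlike sequence. Among the 90 peaks at least 2-fold higher with cuts in at least 10 *Pax8* nuclei it was in 6 (6.67%, 2.49% to 13.9%), and among the 746 such peaks that were not higher in 6.70%. In promoters of the same length its share was 22.6% of 32851. AAGGTCA was present in 5.56% (1.83% to 12.5%) of the 90 higher peaks, 0.938% of those not higher and 9.48% of all, and GCNTGAC in 12.2% (6.26% to 20.8%), 11.7% and 8.66%. A match of letters is a description and not a site of binding.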

How the data were processed

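Per the labels and the study's methods, RNA and ATAC were read from nuclei of frozen E14.5 testes, and the authors processed the reads with Cell Ranger ARC 2.0.1 against mm10. The deposited matrix holds raw counts (UMIs of each gene, and cuts in each peak) for 9833 barcodes, with 122049390 UMIs and 38243814 cuts in peaks. The doublet, ambient RNA and quality filters that the authors applied later are not in it.

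Barcodes with 2000 to 50000 UMIs, under 10% mitochondrial UMIs and over 500 cuts were kept, 7492 in all. The 70 highest by marker share were taken. The members and gene lists were chosen with earlier results of these data known. Counts were summed over nuclei and scaled to CPM. Genes were compared where the mean of both CPM was at least 20 and peaks where the mean of both normalised cut counts (per 1000000 cuts) was at least 5, and a fold of 2 was the call. The genes named first were the 20 highest with at least 30 UMIs in at least 24 members and the 10 lowest, and the 8 leading peaks had cuts in at least 10 members. Ratios carry exact conditional binomial intervals and shares Clopper-Pearson intervals at 95%, for counting error only. No test between groups was possible with 1 library per assay. Chromatin clusters came from 107310 peaks by TF-IDF, 30 components of which 29 were used, 20 nearest neighbours and the Leiden method at resolution 1. The component left out had the largest absolute correlation with depth, an r of 0.948. Weaker relations to depth could remain in the 29 that were used. Doublets were scored with Scrublet and not removed in the main analysis. Python 3.11.15, numpy 2.4.6, scipy 1.17.1, pandas 2.3.3, scikit-learn 1.9.0, scanpy 1.11.5 and igraph 0.11.9 were used, and the scripts were tested on simulated data. Some genes are not reported here and not plotted.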

Additional observations from a re-analysis of the deposited data

Results flagged for a closer look

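Cuts outside the deposited peaks were counted in windows of 500 bases. These windows lie outside the deposited peaks, so the peak comparisons did not use them, although the counts over whole genes and the plot of the *Pax8* locus include cuts outside peaks. Of 43 windows with cuts in at least 6 *Pax8* nuclei, 31 were at least 2-fold and 18 at least 10-fold higher than in the other nuclei. The 43 were chosen for cuts in the *Pax8* nuclei, which favours high ratios. No share over windows chosen without regard to these nuclei is given here, so the counts cannot show an excess. The 6 windows given next are those of the 18 with cuts in at least 7 *Pax8* nuclei. A window in an intron of *Car10*, chr11:93450500-93450999 (mm10), had 12 cuts in 7 *Pax8* nuclei, 8 cuts in all other nuclei and 0 in Sertoli-like nuclei, a ratio of 165 (61.9 to 465). An intron window of *Farp1* had a ratio of 62.1 from 13 cuts in 8 nuclei, and one of *Ankrd6* had 45.4 from 19 cuts in 10 nuclei. An intergenic window nearest to *Cdc42bpa* had a ratio of 43.9, an intron window of *Rras2* 20.9 and an intron window of *Aspscr1* 16.6. Of the windows with cuts in 6 nuclei, one at chr4:10637500-10637999 had 10 cuts and 0 in the other nuclei, and intron windows of *Snx7* and *Eml1* had ratios of 96.1 (29.7 to 303) and 49.2 (23.5 to 97.8). The *Car10* window lies within a gene used by the rule, and all these windows were found by searching these nuclei, so the ratios are a description.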

How the results depend on the processing

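No paired analysis was possible because each assay had 1 library. Taking the 100 highest nuclei moved the genes at least 2-fold lower from 776 to 397, the share in the Sertoli-like chromatin cluster to 53% and the peaks at least 2-fold higher from 21354 to 13468. A mean CPM of at least 5 gave 1024 higher and 1720 lower genes, and at least 50 gave 307 and 405. A minimum of 10 cuts per 1000000 gave 9117 higher and 2948 lower peaks. The summed ratio of *Sox9*, *Amh* and *Dmrt1* over the other nuclei was 0.687 as a mean of CPM per nucleus and 0.887 after thinning to 2000 UMIs, and 0.230 over Sertoli-like nuclei after thinning. With 15 components the Sertoli-like share was 81.4%. With all 8 markers voting, *Rmst* had a ratio of 111 and *Bmpr1b* of 45.9. Among alternatives chosen after seeing the data, the *Car10* promoter had a ratio of 0 in the nuclei outside the Sertoli-like cluster, from few cuts, and the cause was not tested. The other 104 alternative values of the main results lay within the main value's counting interval or within 1.5 times a main count. Of these, 3 were on the other side of 1, all at the *Rmst* promoter, with 0.760 for the 50 highest nuclei, 0.689 after removal of the highest doublet scores and 0.739 in the Sertoli-like cluster alone. The *Pax8* and *Car10* promoters had 4.12 and 3.08 among the 100 highest nuclei. Higher values were found for the *Car10* promoter in the Sertoli-like cluster alone, at 7.54, and for the *Rmst* promoter in the nuclei outside it, at 1.80. Without the 2 nuclei in the germ-like cluster, also chosen after seeing the data, the summed germ ratio over Sertoli-like nuclei turned from 1.36 to 0.292. The 20 leading genes stayed at least 2-fold higher in every alternative choice of nuclei, but they were picked for high ratios in largely these nuclei. Ranking without the keratins and an extra quality filter each returned the same 70 nuclei. Removal of the highest doublet scores left 69 of them in the group. Values under these settings could therefore hardly move, and their stability is no support. Of the 10 lowest, 8 stayed at least 2-fold lower among the 100 highest nuclei and 10 in the other choices. The exceptions were *Esrp1*, with a ratio of 0.615 (0.425 to 0.862), and *St18*, with 0.966 (0.751 to 1.22). Ratios at single promoters and peaks rest on few cuts.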

Other observations

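Some genes were carried by few *Pax8* nuclei. *Nrxn3*, a presynaptic adhesion protein, had 231 UMIs in 19 nuclei, and 81.8% of them came from 3 nuclei. *Dach1*, a transcriptional cofactor, had 125 UMIs in 12 nuclei with 75.2% from 3, and *Kif26b*, a kinesin family protein, 221 UMIs in 27 nuclei with 69.7% from 3. For *Pax8* the 3 highest nuclei gave 12.3% and for *Rmst* 9.15%.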
